A study of Mus musculus with 4 samples.

Results

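The peaks described here are the contacts of Trim71 (R783H) that the authors placed in coding sequence: 209 of the 793 listed peaks, in 171 genes by the deposited gene name. They were taken by the location column alone, with no threshold on a value, and 17 peaks with a combined label of coding sequence and a UTR were left out. The study cross-linked protein to RNA in mouse embryonic stem cells of the ES-E14TG2a background that carry a FLAG-tagged Trim71 with the R783H change, and sequenced the RNA recovered with an antibody against FLAG (HITS-CLIP). There were 2 CLIP libraries and 2 input libraries of the same cells, grown in a LIF medium with inhibitors of GSK3 and MEK. All 4 libraries carry the mutant form; no wild-type protein was analysed here, and the labels do not say whether the line is 1 clone. Each peak has 1 value of read density in RPM (reads scaled to the CLIP library total) and 1 log2 fold change of CLIP over input for the whole series, so no replicate error exists, and every interval below covers counting error only.

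Trim71, also known as Lin41, belongs to the TRIM-NHL proteins. Its NHL domain folds into a propeller that holds small hairpins of messenger RNA, and bound messages are degraded or less translated. The protein is abundant in embryonic stem cells and early neural progenitors, and changes in it have been linked to congenital hydrocephalus. Binding is best known in 3′ UTRs. A protein bound in coding sequence shares the RNA with elongating ribosomes, which pass over that region and not over the 3′ UTR.

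Messages of the translation machinery were the most frequent of the listed groups in coding sequence. Cytosolic ribosomal protein genes supplied 52 of the 209 peaks (24.9%) in 35 genes, and translation factors a further 12 peaks in 9 genes. Over all locations ribosomal protein genes supplied 102 of the 793 peaks (12.9%), and among the 300 peaks in 3′ UTRs 9 (3.00%). Translation factors supplied 20 peaks of the whole list and 3 in 3′ UTRs. By number of coding-sequence peaks, chaperones had 14 in 10 genes, or 6.7%, against 4.67% of the 3′ UTR peaks and 3.66% of the whole list. Proteins of mitochondria had 9 in 8 genes (4.31%, against 1.0% and 2.9%). Transporters and pumps had 8 in 8 genes (3.83%, against 4.0% and 3.91%), near their share of the whole list. The lists were defined by patterns of gene symbols, so each count is of the list and not of all genes with that function. Of the 171 genes, 142 had 1 coding-sequence peak and 29 had more, up to 4 in Eef1a1, and 19 genes also had a peak in the 3′ UTR. How much coding sequence and 3′ UTR these genes have, and how abundant their messages are, was not brought into the shares.

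The CLIP reads of a coding-sequence peak ranged from 37 to 1135 (median 81), and the recovered input reads from 5 to 939 (median 36). Their read density ran from 3.36 to 103 RPM with a median of 7.36 (quartiles 5.18 and 11.3), against 8.36 RPM in the whole list. The median log2 fold change was 4.07 (quartiles 3.52 and 4.79), against 4.20 in the whole list, and the median half-width of its 95% counting interval was 0.61. An enrichment of at least 32-fold, a log2 fold change of 5, was reached by 42 of the 209 peaks (20.1%), against 25.9% of all 793 listed peaks and 20.3% of the 3′ UTR peaks. Of the 42, 19 had fewer than 10 input reads, and 23 were left without them. At 16-fold, 112 of the 209 coding-sequence peaks passed, at 64-fold 7, and 11 had the lower bound of their interval above 32-fold. The shares of all 793 listed peaks that passed were 56.4%, 6.05% and 9.21%. No count stood above the share of the whole list. The intervals were narrow, with a median of 26 bases in coding sequence and 34 bases in 3′ UTRs, and 20 coding-sequence peaks were under 10 bases wide. RPM is the scaled read count of an interval and is not divided by its width.

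**Figure D1:**
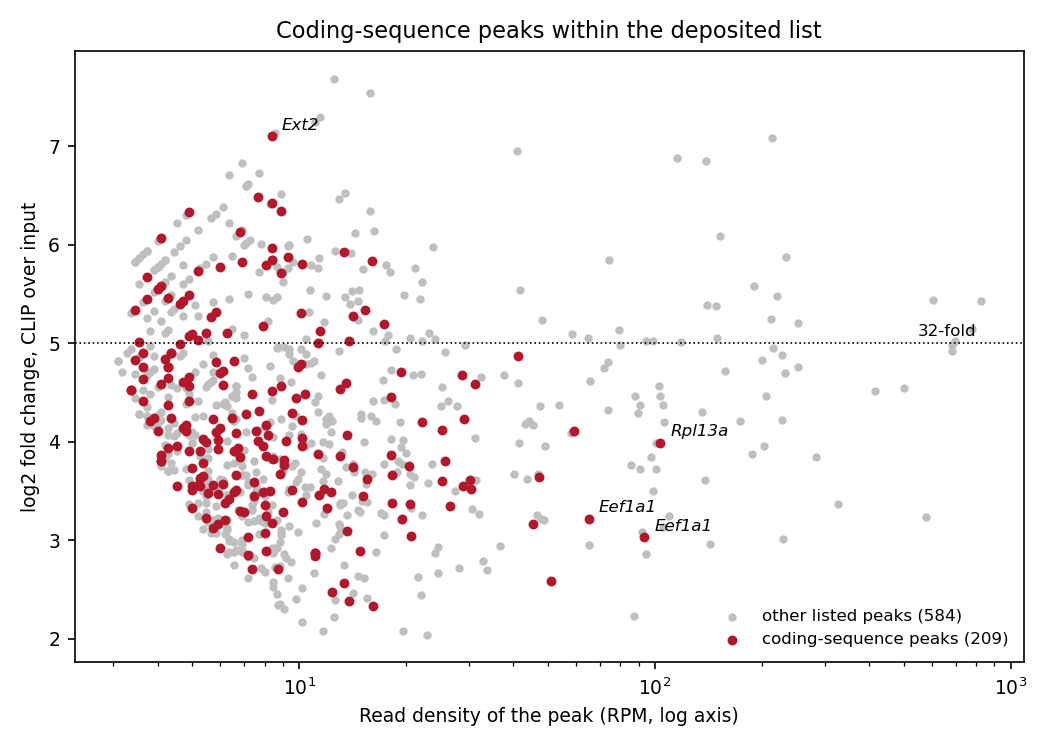
Each point is a listed peak, with its read density in RPM on a log axis and its log2 fold change of CLIP over input on the vertical axis; the 209 coding-sequence peaks are red, all others grey, and the dotted line marks 32-fold. The red points stay at or below 103 RPM and reach a log2 fold change of 7.10, and none of the 10 densest red points lies above the line.

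The position of the peaks was examined against the span of each gene in the RefSeq gene table of GRCm38.p6, introns included, with 0 at the gene's 5′ end and 1 at its 3′ end. The 207 coding-sequence peaks that lay in the span of their gene had a median position of 0.68 (quartiles 0.35 and 0.84). The 294 such 3′ UTR peaks had a median of 0.96 (0.90 and 0.99). A 3′ UTR follows the coding sequence of its message, so this order is given by the labels themselves and is no check on them. The deposited names went against the label in 1 gene: 1500012F01Rik, the older name of Zfas1, is a long noncoding RNA in the gene table, although its 2 peaks are listed as coding sequence. Of the other names, 169 belonged to protein-coding genes, and 1 was written as a calendar date; its interval lies in the span of Selenof.

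The largest group, the cytosolic ribosomal proteins, was bound in 35 of the 87 protein-coding genes whose symbols match the list. These proteins form the small (Rps) and large (Rpl) ribosomal subunits, and their messages are among the most abundant in dividing cells. Their 52 coding-sequence peaks had a median of 12.7 RPM, against 6.18 RPM in the other 157, and held 40.6% of the summed RPM in coding sequence. The median log2 fold change was 3.87, against 4.12 in the other genes. The recovered input was higher too, with a median of 82 reads against 30. At least 32-fold enrichment was reached by 9 of the 52 (17.3%), against 21.0% of the other coding-sequence peaks and 25.9% of the whole list. Processed copies of ribosomal protein genes are nearly identical to their parents, and how such reads were assigned is not stated, so single values of this group are uncertain.

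The ribosomal protein peak with the most reads, and the densest of all in coding sequence, lay in Rpl13a (chromosome 7, minus strand, 45126602 to 45126660). It held 1135 CLIP and 534 input reads, or 103 RPM, with a log2 fold change of 3.99 (95% counting interval 3.84 to 4.14). The interval overlaps the small nucleolar RNA gene Snord34, which the gene table places from 45126603 to 45126668, so reads of that RNA and of the Rpl13a message cannot be told apart here. No other coding-sequence peak overlapped a snoRNA gene of the table. Rps29 followed with 59.1 RPM and a log2 fold change of 4.11 (3.90 to 4.31), and Rpl12 with 47.1 RPM and 3.64 (3.43 to 3.84). Rpl8 had 45.3 RPM at 3.17 (2.98 to 3.36), and Rpl32 had 41.3 RPM at 4.87 (4.57 to 5.18). Rps18 (31.3 RPM) and Rps20 (30.4 RPM) completed the ribosomal protein genes among the 10 densest peaks, with log2 fold changes of 4.59 and 3.52. The counting intervals of these Rpl32 and Rpl8 peaks did not overlap, so the peaks differed in enrichment at similar read density beyond counting error. The messages as a whole did not separate. Rpl32 also had a peak at 3.37 (3.07 to 3.67), and Rpl8 a peak at 4.24 (3.59 to 4.93).

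The most enriched ribosomal protein messages were others. Rpl35 had a pair of peaks on the minus strand of chromosome 2, with 84 and 98 CLIP reads against 7 and 9 input reads, and log2 fold changes of 6.49 (5.38 to 7.84) and 6.35 (5.36 to 7.52). Rps16 reached 6.13 (5.08 to 7.39) and Rpl19 6.07 (4.74 to 7.76), from 8 and 5 input reads. Rps2, a protein at the entry of the mRNA channel, had 3 peaks on the plus strand of chromosome 17 between 24720533 and 24721014, with 98, 112 and 102 CLIP reads and 14, 15 and 13 input reads. Its values of 5.71, 5.80 and 5.87 were all above 32-fold and differed by less than their counting intervals.

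The other parts of the translation machinery were bound in fewer genes. Translation factors had 12 coding-sequence peaks in 9 of 82 genes, with a median log2 fold change of 3.66, and none of the 12 reached 32-fold, against 20.1% of all coding-sequence peaks and 25.9% of the whole list. Eef1a1, the elongation factor that delivers aminoacyl-tRNA to the ribosome, accounted for 4 of them. On the minus strand of chromosome 9, its peaks held 1026, 213, 560 and 716 CLIP reads in genomic order, against 939, 61, 696 and 575 input reads. The log2 fold changes were 3.03 (2.90 to 3.16), 4.71 (4.29 to 5.14), 2.59 (2.42 to 2.75) and 3.22 (3.06 to 3.38). The peak from 78479306 to 78479316 was thus the most enriched and held the fewest reads, and its counting interval overlapped none of the other intervals. The remaining members lay between 4.09 and 10.1 RPM. Eef1b2, which recharges Eef1a1 with GTP, had a log2 fold change of 4.79, the initiation factor subunit Eif3d 4.49, the translocase Eef2 4.17 and Eif4b, a helper of the cap-bound helicase, 3.82. Qars, the glutaminyl-tRNA synthetase, was the 1 tRNA synthetase bound in coding sequence, at 11.3 RPM and 124 CLIP over 29 input reads (interval 4.40 to 5.63).

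Genes that build ribosomes had 5 coding-sequence peaks with a median log2 fold change of 3.46, against 4.07 over all coding-sequence peaks. They supplied 2.39% of the coding-sequence peaks, 2.0% of the 3′ UTR peaks and 2.65% of the whole list. Nucleolin (Ncl) had 2 coding-sequence peaks with 28.9 and 7.46 RPM and log2 fold changes of 3.55 and 3.45. Npm1, the nucleolar histone chaperone nucleophosmin, had the lowest enrichment of the 209, at 2.34 (2.05 to 2.62) from 177 CLIP and 262 input reads. Nop58, a core protein of the box C/D snoRNP, had 3.46 and Nop14 3.73.

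Chaperones were bound in coding sequence in 10 of 124 genes, with 14 peaks and a median log2 fold change of 3.93. The cytosolic chaperonin, which folds actin and tubulin, contributed 3 subunits. Cct4 reached 5.93 (5.22 to 6.72) with 147 CLIP and 18 input reads, Tcp1 had 224 and 124 reads and 3.75 (3.43 to 4.08), and Cct5 had peaks at 5.27 and 3.85. The Hsp90 genes were bound repeatedly, Hsp90ab1 with 3 peaks between 3.04 and 3.74 and Hsp90aa1 with 2 peaks at 3.49 and 4.29. Tbcd, a tubulin folding cofactor outside the list, ranked 3 by enrichment, at 6.42 (5.39 to 7.68).

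Glycolytic enzymes and glucose transporters had 7 coding-sequence peaks in 5 of 19 genes, and 1 peak in 3′ UTRs. These were 3.35% of the coding-sequence peaks and 0.333% of the 3′ UTR peaks, against 1.01% of the whole list. Pkm, the pyruvate kinase, had 13.6 and 7.64 RPM at log2 fold changes of 3.10 and 4.01. Ldha, the lactate dehydrogenase, had 2 peaks at 3.90 and 3.66, Aldoa 1 peak at 3.67 and the neuronal-type glucose transporter Slc2a3 1 at 2.85. Proteins of mitochondria had 9 peaks in 8 of 273 genes, with a median of 4.58. Atp5g3, a subunit of the rotor ring of ATP synthase, had 25.2 RPM at 4.12, and the phosphate carrier Slc25a3 had 18.3 RPM at 3.66. Citrate synthase (Cs) had 8.27 RPM at 3.50. Timm23, the channel of the inner-membrane import complex, had 2 peaks of 92 CLIP reads each, at 5.97 (5.06 to 7.02) and 5.84 (4.97 to 6.84). Pmpcb, the protease subunit that removes import signals, lies outside the list and had 176 CLIP and 23 input reads, at 5.84 (5.21 to 6.53).

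Histone genes, whose messages end in a stem-loop and not in a poly(A) tail, had 5 coding-sequence peaks: Hist1h4c at 25.2 RPM and 3.61, Hist2h2bb at 9.09 RPM and 3.76, Hist1h1d at 8.73 RPM and 2.71, Hist1h4f at 8.36 RPM and 4.52, and Hist1h3c at 4.91 RPM and 5.07. The 5 peaks were 2.39% of the coding-sequence peaks, against 0.667% of the 3′ UTR peaks and 0.883% of the whole list. Histone genes of one type are close copies of each other, so reads may belong to a neighbour. The list of proteasome and ubiquitin genes, which leaves out Fbxo21 and Znrf3, had 7 peaks in 7 of 240 genes with a median of 4.11, among them the proteasomal ATPase Psmc2 at 5.12, the core particle subunits Psma1 at 3.51 and Psmb4 at 3.17, the ubiquitin ligase Ubr4 at 4.82 and the deubiquitinase Usp9x at 5.59. The 7 peaks of proteasome and ubiquitin genes were 3.35% of the coding-sequence peaks, against 2.0% of the 3′ UTR peaks and 1.89% of the whole list. The list of transporters and pumps had 8 peaks in 8 genes, with the nuclear import receptor Tnpo1 (13.8 RPM) at 5.02. Abcf2, which is in that list by its symbol and not by a known transport function, had 5.30. Of the cytoskeleton, the beta-tubulin Tubb2b reached 5.40 (51 CLIP and 9 input reads), beside Actb and Tuba1b.

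Regulators of RNA, chromatin, stem cell identity and the cell cycle were counted next. The list of splicing and RNA-binding genes supplied 2.87% of the coding-sequence peaks, 11.7% of the 3′ UTR peaks and 7.82% of the whole list. It does not hold every such gene: Luc7l3 and Pabpn1, for example, had coding-sequence peaks and are outside it. Chromatin genes had 3 coding-sequence and 12 3′ UTR peaks, in 3 and 12 of 169 genes. Pluripotency genes were bound in coding sequence in 3 of 31 and in the 3′ UTR in 7, and cell cycle genes in 2 and 7 of 179. Chromatin genes supplied 1.44% of the coding-sequence peaks, 4.0% of the 3′ UTR peaks and 2.02% of the whole list. For pluripotency genes these shares were 1.44%, 2.67% and 1.51%, and for cell cycle genes 1.44%, 2.67% and 1.64%. In both, the coding-sequence share was near that of the whole list. Among RNA-binding proteins, Srsf3, a splicing factor, had 15.3 and 7.09 RPM at 5.34 and 4.28, the paraspeckle protein Nono 88 CLIP and 64 input reads at 3.36, and the spliceosomal helicase Dhx15 4.55 RPM at 3.54. The 3 pluripotency genes were the naive-state factor Klf2 with 112 reads over 54 in the input, at 3.95 (3.47 to 4.45), Dppa5a at 3.55 (2.92 to 4.21) and Tbx3 at 3.93 (3.18 to 4.72). Cdk4, the G1 cyclin-dependent kinase, had 2 peaks at 4.49 and 3.42, and Mcm2, a helicase subunit, 1 at 4.23. Chromatin was represented by the Polycomb subunit Suz12 at 4.31 (3.71 to 4.94), by Brd8 at 5.34 (4.16 to 6.75) and by Smarcc1, a core subunit of the BAF remodeller, at 3.95 (3.40 to 4.52). Smarcc1 is the 1 gene of 14 on the list linked to hydrocephalus that was bound in coding sequence.

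**Figure D2:**
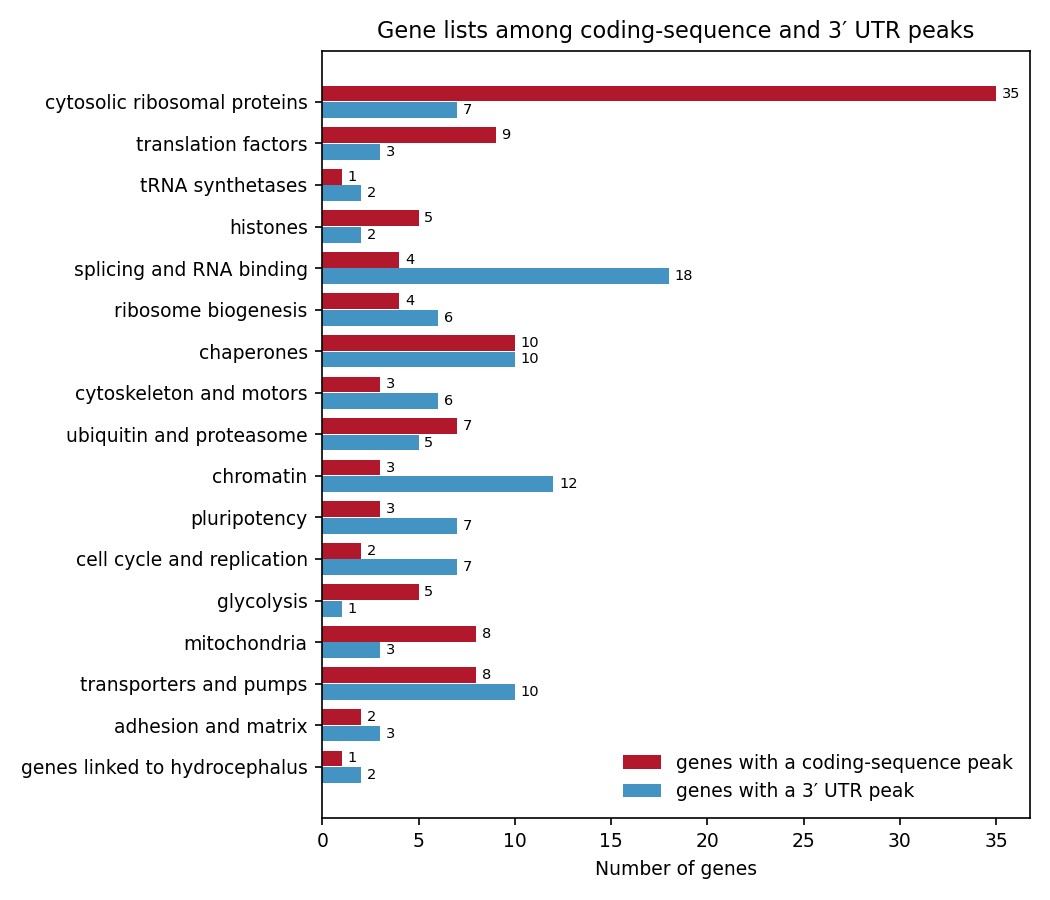
Bars give the number of genes of each list with at least 1 peak in coding sequence (red) and in the 3′ UTR (blue); a gene can be counted in both and in several lists. Ribosomal protein genes are the longest red bar, with 35 genes against 7, and splicing and RNA-binding genes the longest blue bar, with 18 against 4. In all, 171 genes had a coding-sequence peak and 255 a 3′ UTR peak.

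The 10 most enriched coding-sequence peaks shared none with the 10 densest. They lay between log2 fold changes of 5.87 and 7.10 in 9 genes, 5 of the peaks in ribosomal protein genes, and rested on 5 to 18 input reads. The densest 10 lay between 2.59 and 4.87 on 107 to 939 input reads. The highest enrichment belonged to Ext2, a glycosyltransferase that polymerises heparan sulfate, at 93703193 to 93703207 of chromosome 2 (minus strand). Its 92 CLIP reads stood over 5 in the input, and its interval ran from 5.83 to 8.76. Nsmce4a, a subunit of the Smc5/6 complex, had 54 CLIP and 5 input reads at 6.33 (5.02 to 8.01). The value of 5 input reads is the lowest in the list, and 3 coding-sequence peaks had it (Ext2, Nsmce4a and Rpl19). The order among the 10 most enriched peaks was not resolved, since all of their intervals held the range from 5.83 to 6.72.

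Repeated binding was described next. The 29 genes with more than 1 coding-sequence peak held 67 peaks, 32.1% of the class, and 46.8% of its summed RPM. Of these genes, 12 encoded ribosomal proteins. Eef1a1 had 4 peaks, and Rpl13a, Rpl12, Rpl32, Rpl8, Rps2, Hsp90ab1 and Ftl1 had 3 each. Neighbouring peaks of a gene were 16 to 6095 bases apart on the genome, with a median of 478, and 13 of the 38 gaps were at most 200 bases. The values of 1 gene spread over a median of 0.97 on the log2 scale. In 18 of the 29 genes the counting intervals of all peaks overlapped, and in 11 genes at least 1 pair did not. A gene with more peaks has more pairs to compare, and the same count was not made for other locations. In those 11 genes enrichment differed between places of 1 gene by more than counting error. Ftl1, the ferritin light chain, showed it most among coding genes, with 5.32 (4.41 to 6.34) in 1 peak and 2.87 (2.49 to 3.24) in the other 2. In Rpl32 the values were 4.87, 4.45 and 3.37, and in Actb, the cytoplasmic actin, 4.11 and 2.92. The noncoding gene 1500012F01Rik had 5.79 and 3.18 within a gap of 16 bases.

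**Figure D3:**
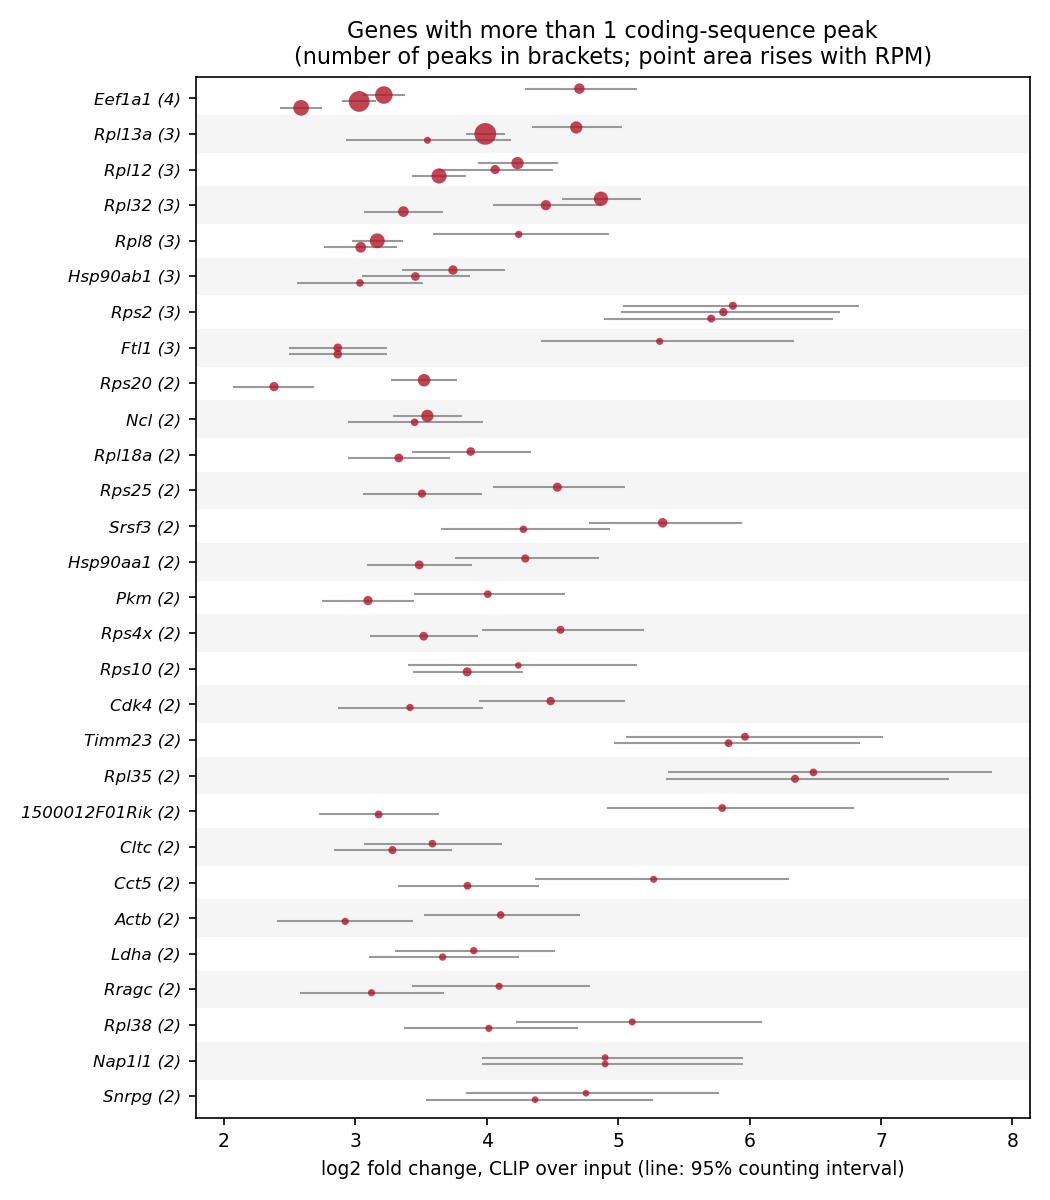
Each row is a gene with more than 1 coding-sequence peak, each point a peak at its log2 fold change of CLIP over input, and each line its 95% counting interval; larger points have more RPM. In Eef1a1 and Ftl1 a weakly covered peak stands to the right of the others, whereas the peaks of Rps2, Rpl35 and Timm23 lie together above 5.

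Some of these repeats held almost the same number of reads. Of 37 neighbouring pairs in coding sequence with no other listed peak between them, 10 had CLIP reads within 10% of each other, and in 2 pairs CLIP and input reads were identical. The same rule found 9 of 31 pairs in introns and 5 of 45 in 3′ UTRs, none of them identical. Pairs with reads this close were therefore also found outside coding sequence. The identical pairs were in Ftl1, with 122 CLIP and 125 input reads in intervals 423 bases apart, and in Nap1l1, with 48 and 12 reads in intervals 682 bases apart. Timm23 had 92 CLIP reads on both sides of a gap of 366 bases, with 11 and 12 input reads, and Snrpg, a core protein of spliceosomal snRNPs, had 47 on both sides of 2112 bases. Rps29 showed the same across a label: its coding-sequence peak held 650 CLIP reads, and a peak 839 bases away, labelled as coding sequence and 3′ UTR, held 640, each over 282 input reads. The peaks named Rps27 and Gm9846 both held 112 CLIP reads, with 51 and 45 input reads, and both lie in the span of Rps27 on chromosome 3. Of the 10 pairs, 8 were more than 200 bases apart, as were 24 of all 37 neighbouring pairs in coding sequence. Whether reads that span a splice junction were counted in both intervals was not tested. In Rps2, the peak with 102 CLIP reads was within 10% of both others, with 98 and 112. Counting each of the 10 neighbouring pairs once left 21 of the 29 genes with repeated binding and 199 of the 209 peaks.

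The last comparison asked which messages were bound in coding sequence and in the 3′ UTR, and how both places compare within a message. The 19 genes with both were 11.1% of the 171 genes bound in coding sequence and 7.45% of the 255 genes bound in the 3′ UTR. They included 7 of the 29 genes with repeated coding-sequence peaks (24.1%) and 12 of the 142 with 1 (8.45%). By function they comprised ribosomal proteins (Rpl13a, Rps3, Rps24, Rps25), nucleolar proteins (Ncl, Npm1, Nop58), Hsp90 chaperones (Hsp90aa1, Hsp90ab1), and single genes such as Eif4b, Ldha, Tuba1b, Smarcc1, the clathrin heavy chain Cltc, the tetraspanin Cd9, the exonuclease Xrn2, the splicing cofactor Luc7l3, the peroxidase Gpx1 and the ubiquitin ligase component Fbxo21.

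Within these genes, the peak with the most RPM in each location was compared. Enrichment was higher in coding sequence in 9 genes and lower in 10, with a median difference of -0.04 (coding sequence minus 3′ UTR, log2); over the mean of a gene's peaks the median was 0.11. The counting intervals overlapped in 12 genes. In 4 genes the coding-sequence peak was higher with no overlap, and in 3 it was lower. Read density was higher in the 3′ UTR in 13 of the 19, with no correction for the width of the intervals. In Cd9 the coding-sequence interval was 5 bases wide and the 3′ UTR interval 63, and in Luc7l3 53 and 34. The 2 places were not always far apart. In Nop58 the coding-sequence interval ended at 59711315 and the 3′ UTR interval began at 59711326. In Hsp90ab1 the coding-sequence peak with the fewest reads lay from 45568048 to 45568071. Its second 3′ UTR peak lay from 45567965 to 45568003.

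Rps25, Smarcc1, Tuba1b and Rpl13a had the higher value in coding sequence. The densest coding-sequence peak of Rps25 had 143 CLIP and 46 input reads at 4.54 (4.05 to 5.05), its second 105 and 69 reads at 3.51 (3.05 to 3.97), and its 3′ UTR peak 121 and 142 reads at 2.67 (2.31 to 3.03). In Smarcc1 the coding-sequence peak had 87 CLIP and 42 input reads at 3.95 (3.40 to 4.52), and the 3′ UTR peak 112 and 146 reads at 2.52 (2.15 to 2.88). The 3′ UTR peak of Smarcc1 held more CLIP reads and the coding-sequence peak the higher enrichment over input. Tuba1b, an alpha-tubulin, had 4.14 (3.48 to 4.83) against 2.73 (2.31 to 3.14), where the coding-sequence interval also lies in the span of a noncoding gene, Gm41396. Rpl13a had 3.99 against 3.13 (2.60 to 3.65), with its coding-sequence value from the interval on Snord34.

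The opposite order was found in Rps24, Hsp90ab1 and Npm1. Rps24 had 147 CLIP and 186 input reads in coding sequence at 2.56 (2.24 to 2.88). It had 2 peaks of 95 CLIP reads each in the 3′ UTR, at 5.77 (4.93 to 6.73) and 4.95 (4.28 to 5.67). These held 13 and 23 input reads and lay at 0.75 and 0.53 of the gene's span, short of its 3′ end. Whether they lie on the same transcript of Rps24 as the coding-sequence peak was not tested. All 3 coding-sequence peaks of Hsp90ab1, at 3.74, 3.46 and 3.04, lay below both of its 3′ UTR peaks, at 5.62 (5.12 to 6.16) and 5.45 (4.97 to 5.97). Npm1 had 2.34 in coding sequence against 3.64 (3.33 to 3.96) in the 3′ UTR. In Hsp90aa1, the stress-induced form of Hsp90, the densest peaks had 3.49 (3.09 to 3.89) in coding sequence and 2.95 (2.80 to 3.11) in the 3′ UTR, with overlapping intervals. Its second coding-sequence peak had 4.29 (3.76 to 4.86) and its second 3′ UTR peak 4.03 (3.66 to 4.40).

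**Figure D4:**
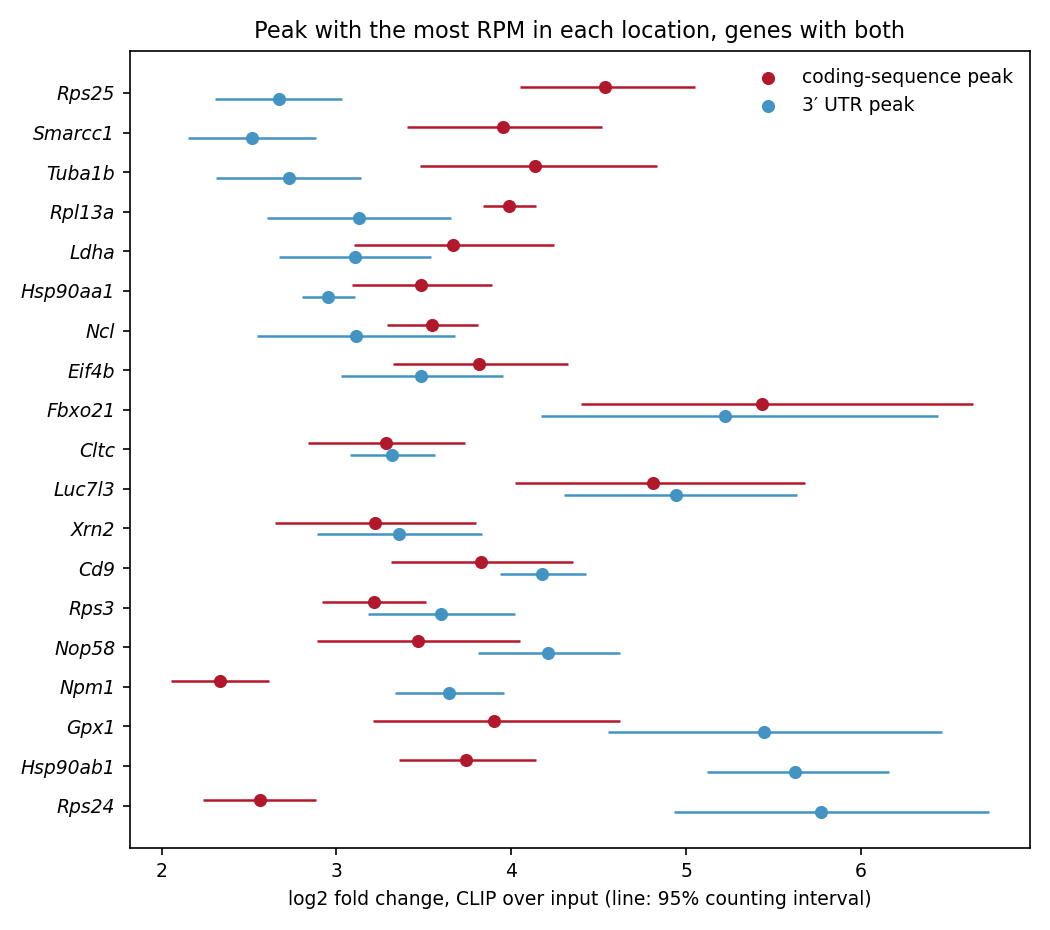
For each of the 19 genes with both kinds of peak, points give the log2 fold change of CLIP over input of the peak with the most RPM in coding sequence (red) and in the 3′ UTR (blue), with 95% counting intervals as lines; genes are ordered by the difference. The red interval lies clear to the right of the blue in Rps25, Smarcc1, Tuba1b and Rpl13a, and clear to the left in Rps24, Hsp90ab1 and Npm1.

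Peaks elsewhere in the same genes were then counted. Apart from the 3′ UTR, 21 of the 171 genes had 30 further peaks: 12 in introns, 8 with a combined label, 7 in 5′ UTRs and 3 in unclassified exons. In the 5′ UTR, Rps20 had 58.5 and 20.5 RPM at 5.09 and 3.56, and Rps14 had 21.2 and 16.1 RPM at 5.77 and 5.12, above its coding-sequence value of 3.44. For 137 of the 171 genes, coding sequence was the 1 location with a listed peak. Since no value is given for unlisted regions, the level of binding elsewhere in those genes is not known.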

How the data were processed

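The members and the gene lists were chosen with earlier results of these data known. The assay was HITS-CLIP, per the labels' protocols. The tools and build named in the submitters' processing notes are CASAVA 1.4, cutadapt, HISAT2 2.1.0, SAMtools and mm10; the peak caller, its thresholds and the pooling of replicates are not given in the sources used here. The deposited table gives RPM, per the file headers, and a fold change whose base the header does not name. Times 11, 100% of the RPM values were whole CLIP reads (within 0.0056), which gives 11000000 CLIP reads in total. Read as log2, the deposited fold change gave whole input reads at a depth ratio of 7.469 (82159000 input reads) in 100% of the 708 peaks with a rounding error under 0.1 reads; read as a linear ratio it gave 15.5% and as a natural log 4.17%. Any constant the authors put on the input is part of these reads.

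The 95% interval of a log2 fold change was derived from an exact binomial (Clopper-Pearson) interval for CLIP reads among all reads at a peak. It covers counting error in the pooled libraries only. The recovery of reads and the interval were tested on simulated data. No test across peaks was run, since peaks are not replicates.

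Named genes were those with 3 or more coding-sequence peaks, the 10 most enriched peaks, the 10 with the highest RPM, all genes with a coding-sequence and a 3′ UTR peak, and up to 4 genes per list by RPM; names outside this rule were chosen after their values were seen. Gene names were matched to a RefSeq table of GRCm38.p6: 161 of 171 matched a symbol, 9 an older name and 1 none. Coordinates are printed as deposited, and whether they count from 0 or 1 is not stated. Sequences of the peaks were not used here. Columns left out: 0. Python 3.11.15, numpy 2.4.6, pandas 2.3.3 and scipy 1.17.1 were used.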

Additional observations from a re-analysis of the deposited data

How the results depend on the processing

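No replicate could be left out. No paired analysis was possible because libraries have no values of their own in the peak list. The comparison of peak sequences was not run, since no genome was used here. Restricted to the more enriched peaks (those above the median log2 fold change of the list), there were 92 coding-sequence peaks in 84 genes, and 2 genes with a 3′ UTR peak as well; fewer peaks enter by construction. At 16-fold 112 coding-sequence peaks passed (56.4% of the whole list passed), and at 64-fold 7 (6.05% of the whole list passed). With the lower bound of the interval above 32-fold 11 passed (9.21% of the whole list passed). Without peaks under 10 input reads, an alternative chosen after seeing the data, 23 of the 42 remained. The median difference within genes turned from -0.04 to 0.11 over the mean of a gene's peaks. By summed RPM the ribosomal protein share was 40.6% in place of 24.9% of peaks. Merging coding-sequence peaks within 50 bases left 207 peaks and 27 repeated genes, and they were not merged with 3′ UTR peaks. Adding combined labels gave 226 peaks in 180 genes, 35 repeated genes and 21 genes with both. Leaving out the Snord34 interval and the noncoding gene left 206 peaks. None of these changes moved a count by over 1.5 times. Depth limits the largest values: 19 of the 209 peaks had fewer than 10 input reads.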

Other observations

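Further groups outside the lists were chosen after their values were seen, and are given as values. Messages of RNA decay and tail binding had peaks in coding sequence. Upf1, the helicase of nonsense-mediated decay, had a log2 fold change of 5.17 (4.43 to 5.99) from 87 CLIP and 18 input reads. Pabpn1, the nuclear poly(A)-binding protein, had 149 and 46 reads at 4.60 (4.11 to 5.11). Cnot1, the scaffold of the CCR4-NOT deadenylase, had 59 and 35 reads at 3.65 (3.03 to 4.30), and Xrn2, the nuclear 5′ exonuclease, 60 and 48 at 3.22 (2.65 to 3.80).

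Genes of redox defence and iron handling were a further choice of this kind. Sod1, the cytosolic superoxide dismutase, had 191 CLIP and 39 input reads at 5.19 (4.69 to 5.73). Haem oxygenase (Hmox1) and glutathione peroxidase (Gpx1) both had 3.90, thioredoxin (Txn1) had 3.37, and the peak in the span of Selenof, a selenoprotein of the endoplasmic reticulum, had 3.84. Ftl1 adds 3 peaks to these.

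Values in genes of signalling differed widely. The ephrin receptor Epha2 had 76 CLIP and 10 input reads at 5.83 (4.87 to 6.94), the FGF-responsive factor Etv5 57 and 8 at 5.73 (4.66 to 7.01), and Znrf3, a ubiquitin ligase that removes Wnt receptors, 44 and 7 at 5.55 (4.39 to 6.95). Rragc, a GTPase that recruits mTORC1 to lysosomes, had 2 peaks of 63 and 64 CLIP reads at 3.12 and 4.09. Gnb1, a G protein beta subunit, had 2.70, and the kinase Mapk6 4.09. Asns, the asparagine synthetase, had 200 CLIP and 144 input reads at 3.38 (3.06 to 3.69).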
